A study of Mus musculus with 6 samples.

Results

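The baseline transcriptome of fed control C2C12 myoblasts was read from 1 RNA sequencing library, that of non-starved cells given the control siRNA called siNS. Its members were all rows of the deposited table that carry a single gene symbol, leaving out rows of combined symbols, repeated symbols and short RNAs. These were 21671 of 22989 rows and held 92.3% of the summed FPKM (fragments per kilobase of transcript, scaled to the size of the library, a level per length of transcript). C2C12 is an established mouse myoblast line, here with the strain label C3H, grown in DMEM with 10% fetal bovine serum. The series compared this control with siNS cells that were kept for 4 h in a salt solution (HBSS) as starvation, and with non-starved cells given siRNA against the transcription factor gene Foxk1, and mapped Foxk1 and Sin3A on chromatin of non-starved cells. RNA was selected for polyA tails and made into libraries by the TruSeq method. Each of the 3 RNA groups held 1 library, so no spread between replicates, test or p-value can be given, and the levels below describe this library.

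Myoblasts are the proliferating precursors of skeletal muscle. The myogenic bHLH factors Myf5 and Myod1 hold them in the lineage, Myog and the Mef2 factors drive exit from the cell cycle and fusion into myotubes, and Id proteins block the bHLH factors by binding their E protein partners. Desmin, the intermediate filament of muscle, is present before fusion, whereas most sarcomere genes are switched on after it. Many of the proteins a muscle cell needs come from families of related genes (paralogs), of which a proliferating cell and a contractile fibre use different members.

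All 4 markers of the line were present. Vim, the intermediate filament gene of mesenchymal cells, stood at 3544 FPKM with an interval of 2969.8 to 4097, and Des, which encodes desmin, at 485 FPKM (418 to 553). Myod1 stood at 70.1 FPKM (57.6 to 82.3) and Myf5 at 16.8 FPKM (12.2 to 19). These are the authors' 95% limits, and how they were computed is not given in the sources used here. Genes of this library are called apart where their limits do not overlap. The deposited mean lay above its own upper limit in 315 rows, of which 33 were among the 100 most abundant, so the order at the very top is uncertain. Read depth is unknown, because FPKM keeps no counts.

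A gene is called detected at 1 FPKM or more. By this rule 10690 of 21671 genes were detected, which is 49.3%, the background for the counts of gene lists below. Among them 8356 (38.6%) reached 5 FPKM, 6422 (29.6%) reached 10 FPKM, 791 (3.65%) reached 100 FPKM and 82 reached 1000 FPKM. The median detected gene stood at 13.9 FPKM, with quartiles of 5.80 and 33. Another 5384 genes lay above 0 and under 1 FPKM, and 5597 (25.8%) were listed at 0. Of the genes that RefSeq lists under the same symbol as protein-coding, 53.4% were detected.

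The RNA was concentrated in few genes. The 10 most abundant held 7.39% of the members' summed FPKM, the 100 most abundant 32.8% and the 1000 most abundant 66.3%, and 338 genes held 50% of it. Lgals1, which encodes the secreted lectin galectin-1, was the most abundant at 5429 FPKM (3834 to 5588) and alone held 1.04%. Next came Rpl41, a ribosomal protein gene, with a mean of 5184 FPKM above its upper limit of 3868. Eef1a1, which delivers aminoacyl-tRNA to the ribosome, stood at 3658 FPKM, and Tpt1, encoding the translationally controlled tumour protein, at 3592 FPKM. The limits of Lgals1 overlapped those of Rpl41, Eef1a1, Tmsb10, Vim and S100a11, and those of Eef1a1, Tpt1 and Vim overlapped each other, so the order of these genes by mean FPKM is not an order beyond their limits.

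**Figure D1:**
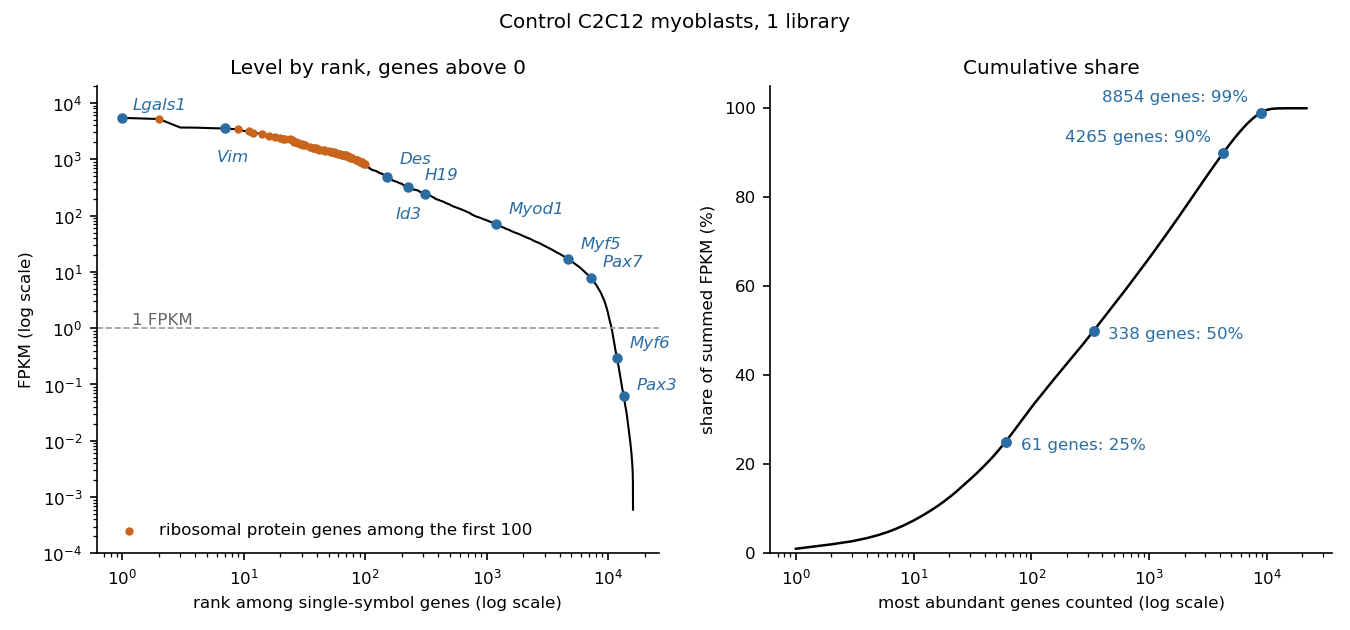
FPKM of each single-symbol gene above 0 against its rank (left, both axes log scale) and the cumulative share of summed FPKM held by the most abundant genes (right). Orange points are ribosomal protein genes among the first 100, blue points are named genes. Lgals1 leads at 5429 FPKM, Myod1 lies at 70.1 and Myf6 at 0.294, and 338 genes hold 50% of the total.

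The non-ribosomal genes at the top fell into a few kinds. Calcium-binding proteins of the S100 family were S100a4 at 3640 FPKM, S100a11 at 3445, S100a10 at 1348 and S100a6 at 1213, and the annexin partner of S100a10, Anxa2, stood at 1399 FPKM. The means of S100a4 and S100a6 lay above their upper limits of 2823 and 1133. Together the S100 proteins, annexins and galectins held 3.65% of the FPKM in 24 detected genes of 35. The actin skeleton supplied Actb at 3186 FPKM, Actg1 at 2689, the actin-binding thymosins Tmsb10 at 3544 and Tmsb4x at 2567, profilin Pfn1 at 2271 and cofilin Cfl1 at 1688. Actb and Actg1 are nearly identical in coding sequence, so the split between them is uncertain.

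Spp1, which encodes the secreted phosphoprotein osteopontin, stood at 2884 FPKM (2455 to 3313), higher than any other gene for a secreted matrix protein in the lists. Sparc, a collagen-binding matrix glycoprotein, followed at 1186.5 FPKM. The prolyl isomerase Ppia (2477 FPKM), the ferritin heavy chain Fth1 (1713), the chaperones Hsp90ab1 (1436) and Hspa8 (1415), the tetraspanin Cd63 (1359) and the glycolytic enzyme Pkm (1265) were among the other genes above 1000 FPKM.

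Ribosomal protein genes made up 62 of the 100 most abundant genes and 51 of the 82 at 1000 FPKM or more. The 78 that were detected had a median of 1219.7 FPKM, and the class held 20.3% of the summed FPKM. Many ribosomal protein genes have processed pseudogenes of almost the same sequence, and 32 of these rows had a mean above the upper limit, so single values are uncertain. Outside this class, 4 of the 31 genes at 1000 FPKM or more had such a mean. These were S100a4, S100a6, Tmsb4x (upper limit 2250) and Ppia (upper limit 2231).

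Subunits of large complexes were detected almost completely. The patterns of symbols for 10 kinds of subunit were chosen after the values were seen. They matched 341 genes, of which 323 were detected. The 74 mitochondrial ribosomal proteins, 29 RNA polymerase subunits, 17 ATP synthase subunits, 11 small nuclear ribonucleoproteins and 8 complex III subunits were all detected. Under 1 FPKM were 4 of 38 proteasome rows, namely the testis subunit Psma8 (listed at 0), the thymus subunit Psmb11 (0.188 FPKM) and the immunoproteasome subunits Psmb8 (0.222) and Psmb9 (0.381). Similarly, the muscle and heart forms Cox6a2 (0.196 FPKM) and Cox8b (listed at 0), the ribosomal protein copies Rpl3l (0.0425), Rpl10l and Rpl39l (both listed at 0) and the chaperonin copies Cct6b (0.186) and Cct8l1 (listed at 0) were not detected. Cox8c and the Rps4y2 row complete the 7 rows of these sets that were listed at 0. All 24 housekeeping genes found from a separate list were detected.

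Promoters of the abundant genes were of different base composition, shown here for 2 genes with few CG pairs and 2 with many. Sequences come from RefSeq promoters of build GRCm38.p6, from 150 bases before to 20 bases after the start, on the plus strand, with every CG in capitals. S100a4 lies at chr3:90603620-90603789, Spp1 at chr5:104434961-104435130 (the first of 2 listed starts), Tpt1 at chr14:75845106-75845275 and Rps2, a ribosomal protein gene, at chr17:24719913-24720082.
S100a4: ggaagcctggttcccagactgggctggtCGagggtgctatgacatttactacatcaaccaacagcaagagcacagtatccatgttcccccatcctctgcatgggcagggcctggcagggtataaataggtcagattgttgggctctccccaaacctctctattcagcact
Spp1: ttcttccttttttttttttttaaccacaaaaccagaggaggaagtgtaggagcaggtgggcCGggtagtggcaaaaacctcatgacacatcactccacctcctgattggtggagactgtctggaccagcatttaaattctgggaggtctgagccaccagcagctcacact
Tpt1: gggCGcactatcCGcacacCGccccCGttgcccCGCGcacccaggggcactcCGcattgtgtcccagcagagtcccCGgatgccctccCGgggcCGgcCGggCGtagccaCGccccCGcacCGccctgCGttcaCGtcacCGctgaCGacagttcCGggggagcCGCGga
Rps2: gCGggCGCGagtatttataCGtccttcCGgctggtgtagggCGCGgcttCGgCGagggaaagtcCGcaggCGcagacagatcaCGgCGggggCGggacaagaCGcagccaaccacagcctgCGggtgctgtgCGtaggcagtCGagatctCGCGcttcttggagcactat

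In these 170 bases S100a4 and Spp1 hold 1 CG each, Tpt1 holds 22 and Rps2 holds 20, at levels of 3640, 2884, 3592 and 2954 FPKM. Genes of similarly high level thus had promoters at both ends of the CG range. Over the full 300 bases the CpG ratio (CG pairs found over those expected from the C and G content) was 0.0871 for S100a4, 0.995 for Tpt1 and 1.11 for Rps2.

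Across protein-coding genes the ratio differed with detection. The 8375 detected genes with a promoter (80.8% of 10369) had a median ratio of 0.778, and the 3837 genes listed at 0 with a promoter (82.1% of 4671) had a median of 0.185. A ratio under 0.4 was found in 35.6% of all 15703 genes with a promoter, in 9.18% of detected genes and in 79.7% of those listed at 0. Within the detected range the medians were closer, at 0.734 for 1 to 10 FPKM, 0.802 for 10 to 100 FPKM and 0.824 for 100 to 1000 FPKM. Genes are not replicates, so these are descriptions without a test. Under 80% of the genes at 1000 FPKM or more, and of those above 0 and under 1 FPKM, had a promoter in the table, so no median is given for them. At 100 FPKM or more, 40 of 641 genes (6.24%) had a ratio under 0.4, among them S100a4, Spp1, Cd63, S100a6, Sparc, Anxa1, Lmna and Des.

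Some of the abundant genes had a TATA element, shown with the TATAAA in capitals in the 40 bases that end 11 bases before the start. The windows are chr2:13574261-13574300 for Vim, chr3:90603720-90603759 for S100a4 and chr11:6415817-6415856 for Ppia on the plus strand, and chr19:20390682-20390721 for Anxa1 on the minus strand.
Vim: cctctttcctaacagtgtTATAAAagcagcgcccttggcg
S100a4: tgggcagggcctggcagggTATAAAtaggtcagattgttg
Ppia: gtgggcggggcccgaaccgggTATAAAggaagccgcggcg
Anxa1: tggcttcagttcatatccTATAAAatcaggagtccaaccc

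The first T of TATAAA lay 32 bases before the start in Vim and Anxa1, 31 in S100a4 and 29 in Ppia. Among 19190 RefSeq promoters of these protein-coding genes, 2.85% held TATAAA between 50 and 16 bases before the start on the gene's strand, and 0.750% held the reverse complement TTTATA there. By gene, TATAAA was present in 3.45% of all genes with a promoter, 1.44% of detected genes and 7.04% of those listed at 0. At 100 FPKM or more it was present in 17 of 641 genes (2.65%). These 4 genes were chosen as abundant genes with the motif, and a match is a description of letters, not of factor binding.

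The myogenic bHLH factors were led by Myod1. At 70.1 FPKM it stood apart from Myf5 at 16.8 FPKM and from Myog at 14.2 FPKM (11.3 to 16.8), whose limits overlapped each other. Myf6, the gene of the late factor Mrf4, stood at 0.294 FPKM. Myog, a factor of differentiation, was thus not told apart from Myf5 by level. In bulk RNA a few cells with much of a transcript and many cells with little cannot be told apart.

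Their partners and inhibitors were present too. The E protein genes Tcf3 (49.9 FPKM), Tcf12 (45.6) and Tcf4 (22.4) were all detected, and Tcf3 and Tcf12 overlapped in their limits. Id3 was the highest of 353 transcription factor genes in the lists at 246 FPKM (181 to 259). Id1 stood at 98.5 FPKM and Id2 at 74.8, while Id4 stood at 0.574. The level of Id3 was apart from that of Id1, and each of Id1, Id2 and Id3 had a higher mean than Myod1. Only Id3 was apart from Myod1 (57.6 to 82.3), as the limits of Id1 (71.9 to 103.7) and Id2 (53.2 to 76.7) overlapped those of Myod1.

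Other regulators of the lineage showed 1 or a few leading members. Of the Mef2 factors, Mef2a (39.0 FPKM) and Mef2d (33.3) overlapped, Mef2c, a form raised during muscle differentiation, stood at 1.84 FPKM, and Mef2b at 0.0201. Pax7, the satellite cell factor, was detected at 7.92 FPKM (6.34 to 9.53), and its relative Pax3, which marks embryonic muscle precursors, stood at 0.0619. None of the other 7 Pax genes of the list was detected, Pax8 being the nearest at 0.858 FPKM. The Eya transcription cofactors Eya4 (12.8 FPKM), Eya3 (12) and Eya1 (6.67) were detected and Eya2 (0.282) was not. The Hippo pathway factors Tead1 (24.8 FPKM), Tead2 (23.7), Tead3 (13.3) and Tead4 (4.88) were all present.

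Hox genes, which mark position along the body and limb axes, were detected in the A and C clusters. Of 35 Hox genes with a single row, 13 (37.1%) were detected against 49.3% of all members. All 9 measured genes of the C cluster were detected and held 70.2% of the Hox FPKM. The A cluster had 4 of 7 detected, the B cluster 0 of 10 and the D cluster 0 of 9, with 7 of the D genes listed at 0. Hoxb4 was the highest B gene at 0.905 FPKM, and Hoxd9 the highest D gene at 0.00720. Among the C genes Hoxc12 (1.07 FPKM), Hoxc5 (1.02) and Hoxc8 (1.01) lay just above the threshold, and Hoxa13 (0.925) just below it.

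Genes of paralog groups 9 to 13, which lie at the 5′ end of the clusters and mark posterior and distal positions, held 89.5% of the Hox FPKM. Hoxc10 led at 39.8 FPKM (32.6 to 47.3), apart from Hoxc11 at 25.3. Hoxc9 (17.3 FPKM), Hoxa10 (16.8) and Hoxa11 (13.4) followed with overlapping limits between neighbours, then Hoxa9 (8.47) and Hoxc13 (8.12). Hoxc6 (4.73 FPKM) and Hoxc4 (4.65) were the highest of groups 1 to 8. Rows left out by the rule were 3 of Hoxa3, at 0.738 to 1.03 FPKM, the combined row of Hoxa5 and Hoxa6 at 2.90 FPKM and that of Hoxa7 and Mira at 11.7 FPKM.

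**Figure D2:**
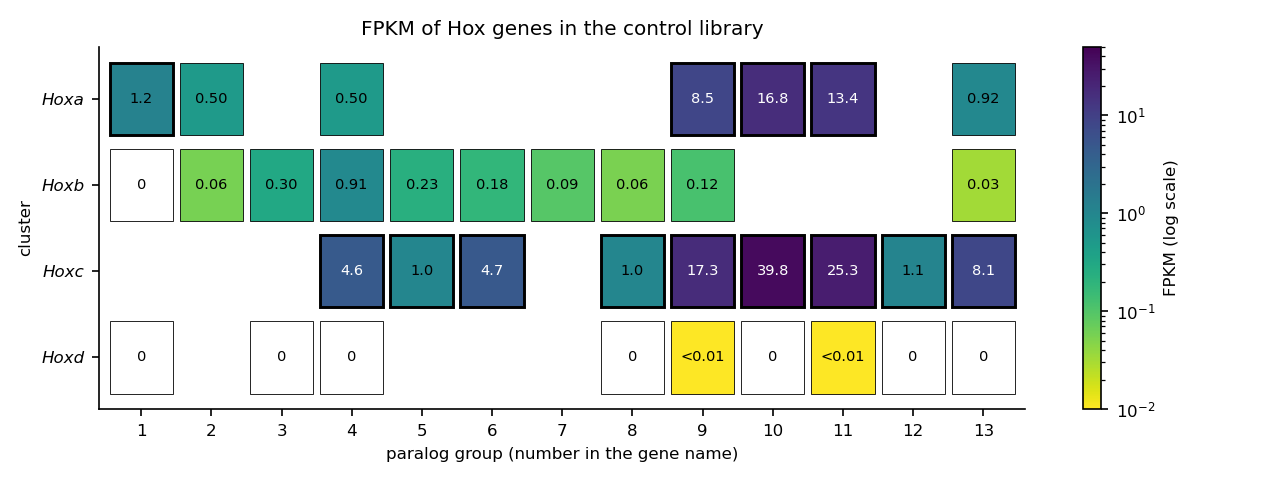
FPKM of 35 Hox genes by cluster (rows) and paralog group (columns), coloured on a log scale, with thick outlines at 1 FPKM or more. White squares are listed at 0 and empty places have no single row. Values are high from group 9 to 11 in the Hoxa and Hoxc rows, up to 39.8 for Hoxc10, and under 1 FPKM throughout the Hoxb and Hoxd rows.

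The Hox cofactors of the Meis, Pbx and Pknox families were detected in 9 of 9 cases, with Meis2 at 23.6 FPKM. Other homeobox genes of limb and trunk mesenchyme were partly present, with 14 of 33 detected. Prrx2 (72.7 FPKM, 57.1 to 88.4) stood apart from Prrx1 (45.9, 37.1 to 54.3), both markers of limb mesenchyme. Pitx1, which marks the hindlimb, was listed at 0. Dlx3 stood at 29.4 FPKM while Dlx5 and Dlx6 were listed at 0. Shox2 (15.5 FPKM) and En1 (14.4) were detected, and Lbx1, a factor of migrating limb muscle precursors, stood at 0.339. Of 12 T-box genes 4 were detected, led by Tbx15 at 11.7 FPKM and Tbx1 at 9.98, with the limb genes Tbx4 (0.0790) and Tbx5 (0.0277) under 0.1 FPKM.

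Across all lists, 198 of 353 transcription factor genes (56.1%) were detected, against 49.3% of all members and 53.4% of protein-coding members. Their median was 2.65 FPKM, and 5 reached 100 FPKM, namely Id3, Atf4 (200.3), Nfix (162), Nfic (114) and Tfdp1 (103). Atf4 is the effector of the amino acid and unfolded protein responses, and Tfdp1 encodes the dimer partner of the E2F cell cycle factors.

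Many factor families were split sharply between close relatives. Nfix (129 to 194) and Nfic (92.3 to 138) were high, Nfib stood at 8.64 FPKM and Nfia at 0.0639. Twist2, a bHLH repressor of mesenchyme, stood at 26.5 FPKM (20.2 to 31.6) and Twist1 at 0.0592. Hif1a, the oxygen-regulated factor, stood at 45.3 FPKM and its relative Epas1 (Hif2a) at 0.107. Each of these splits exceeded the limits of both genes.

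Scx, the bHLH factor of tendon precursors, stood at 71.4 FPKM with wide limits of 46.4 to 98.5, which overlap those of Myod1. Of the other 18 tissue bHLH factors in its list 1 was detected, Msc (musculin) at 5.65 FPKM, and 14 of the 19 were listed at 0, among them the neural factors Neurog1 and Olig2. Sox4 (73.4 FPKM), Sox9 (40.7) and Sox11 (12.6) led the Sox genes, with 6 of 19 detected. Snai2 (31.8 FPKM), Snai1 (23.7) and Zeb1 (11), repressors of epithelial genes, were present. Runx3 (29.3 FPKM), Runx1 (24.8), Runx2 (18.5) and their partner Cbfb (63.3) were detected, as were Gata2 (10.2), Gata4 (10.0) and Gata3 (7.57), while Gata6 stood at 0.201 and Gata1 was listed at 0.

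Some factor families were detected in full and others in part. All 10 E2F and DP genes, all 8 Smads, all 5 NF-kB genes and all 4 Tcf and Lef genes were detected, against 5 of 7 Stat genes, 7 of 11 genes of Hif and related factors and 4 of 8 Irf genes. Smad4, the shared partner, was the highest Smad at 32.3 FPKM, Nfkb1 (51.9) and Rela (41.7) led NF-kB, and Tcf7l1 (28.4) led the Wnt effectors. The highest Ets factors were Elk3 (54.1 FPKM), Etv4 (45.8) and Ets2 (35), with the blood and endothelial members Fli1, Erg and Sfpi1 (PU.1) listed at 0. Srf stood at 34.6 FPKM with its actin-regulated cofactor Mkl1 at 36.9, and the smooth muscle cofactor Myocd stood at 0.294.

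Nuclear receptors were detected in 22 of 49 cases (44.9%). The retinoic acid receptors Rarg (57.3 FPKM) and Rara (27.5) stood above Rarb (0.186), and the retinoid partner Rxrb (16.3) and Rxra (11.4) above Rxrg (0.0498). The thyroid hormone receptor Thra (24.0 FPKM) was present and Thrb (0.0123) was not detected. Ppard (24.6 FPKM) and Pparg (10.9) were detected and Ppara (0.0822) was not. The glucocorticoid receptor Nr3c1 stood at 10.8 FPKM and the oestrogen receptors Esr1 and Esr2 at 0.477 and 0.141.

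**Figure D3:**
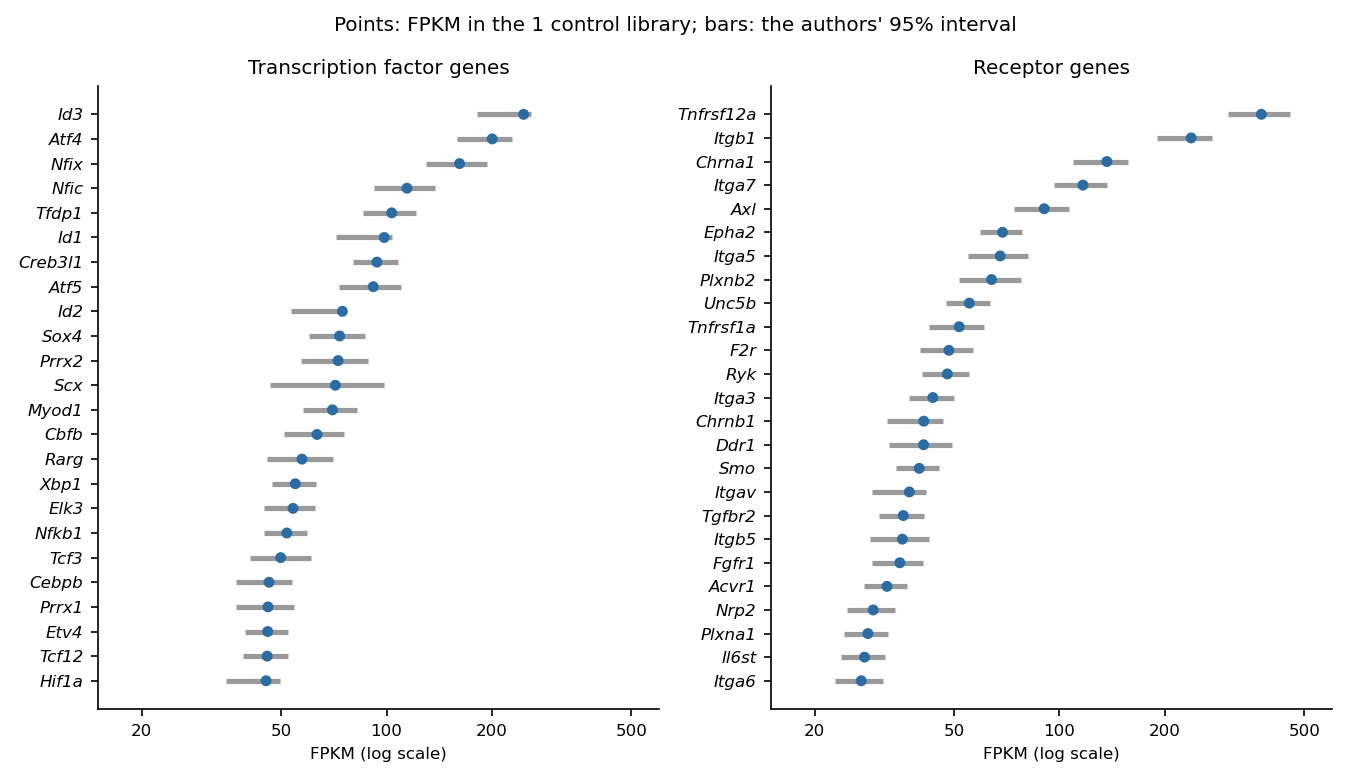
High transcription factor genes (left) and receptor genes (right) of the lists, 24 and 25 of them, with points for FPKM in the control library (log scale) and grey bars for the authors' 95% limits. Id3 at 246 FPKM and Tnfrsf12a at 377 FPKM lead, and Myod1 at 70.1 lies among genes whose limits overlap its own.

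Among 228 receptor genes 117 (51.3%) were detected, close to the 49.3% of all members and the 53.4% of protein-coding members. Their median was 1.10 FPKM. Tnfrsf12a, the receptor of the cytokine TWEAK, was the highest at 377 FPKM (302 to 455), apart from the next, the integrin gene Itgb1 at 238 FPKM (189.8 to 273). Chrna1, of the nicotinic acetylcholine receptor, and Itga7 were the others above 100 FPKM.

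Receptor tyrosine kinases were detected in 29 of 58 cases. Axl, the receptor of Gas6, led at 90.4 FPKM, followed by Epha2 (68.8), Ryk (47.8), the collagen receptor Ddr1 (40.9) and Fgfr1 (35). Of the fibroblast growth factor receptors Fgfr1 stood apart from Fgfr4 (4.08 FPKM), while Fgfr2 (0.787) and Fgfr3 (0.646) were under 1. Met, the receptor of hepatocyte growth factor, stood at 20.0 FPKM and its ligand Hgf at 17.5. Pdgfrb (17.6 FPKM, 14.5 to 20.8) stood apart from Pdgfra (1.41, 1.14 to 1.67), a marker of fibro-adipogenic cells. Musk, the kinase of the neuromuscular synapse, stood at 10.3 FPKM, Igf1r at 8.41, Insr at 4.82 and Egfr at 4.41. The vascular and blood kinases Kdr (0.0418), Tek (0.0851), Flt4 (0.00242) and Kit (listed at 0) were not detected, while Flt1 stood at 3.17.

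Receptors of the TGF-beta family included Tgfbr2 (35.8 FPKM), Acvr1 (32.2), Bmpr1a (23.0) and Bmpr2 (15.3), with Tgfbr1 at 6.46. The activin receptors Acvr2a and Acvr2b, which also bind myostatin, stood at 5.64 and 0.835 FPKM. The Hedgehog transducer Smo stood at 39.8 FPKM with its inhibitor Ptch1 at 3.25. Wnt receptors were led by Lrp5 (25.8 FPKM), Fzd2 (19) and Fzd1 (19), with Fzd10 listed at 0.

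Cytokine receptors were detected in 23 of 32 cases. Tnfrsf1a stood at 51.7 FPKM, the shared interleukin-6 family chain Il6st at 27.8, Lifr at 9.02 and Il6ra at 2.61. The interferon receptor chains Ifngr1, Ifngr2, Ifnar1 and Ifnar2 lay between 13.7 and 24.4 FPKM. Of the G protein-coupled receptors 19 of 48 were detected, led by the thrombin receptor F2r (48.3 FPKM) and followed by Cxcr4 (18.0), the prostaglandin receptor Ptger1 (15.9), the lysophosphatidic acid receptor Lpar1 (15.3) and the sphingosine phosphate receptor S1pr2 (11.4).

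Integrins were led by Itgb1, the common beta chain, and its muscle laminin partner Itga7 at 117 FPKM (96.7 to 137). The fibronectin chain Itga5 (67.7 FPKM), Itga3 (43.5), Itgav (37.3), Itgb5 (35.6) and Itga6 (27.2) followed. Among chains known from leukocytes and platelets, Itga2b (0.647 FPKM), Itgb2 (0.384) and Itgam (0.00365) were under 1 FPKM. Itgb3, the platelet partner of Itga2b and elsewhere of Itgav, stood at 14.8 FPKM (12.4 to 17.1), and Itgb7 at 9.49. Guidance receptors were led by Plxnb2 (64.0 FPKM), Unc5b (55.3) and Nrp2 (29.4).

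The acetylcholine receptor was present in its embryonic muscle form. Chrna1 (137 FPKM), Chrnb1 (41.0), Chrnd (8.83) and Chrng (5.77), which encode the subunits of the embryonic receptor, were the 4 detected of 16 subunit genes. Chrne, which replaces Chrng in adult muscle, stood at 0.00588 FPKM, and the other 11 subunit genes were at 0.0464 FPKM or less.

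Genes for secreted proteins were detected in 77 of 108 cases (71.3%), against 49.3% of all members. Fn1 (fibronectin, 589 FPKM), Mgp (410), Bgn (249), Thbs1 (228) and Nid1 (226) followed Sparc among matrix glycoproteins. The mean of Mgp lay above its upper limit of 356. Elastin (Eln, 0.00381 FPKM), Fbn2 (0.00531) and Tgfbi (0.176) were under 1, and Lama1 was listed at 0.

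The 2 chains of type I collagen differed in level. Col1a2 stood at 239 FPKM (206 to 273) and Col1a1 at 32.1 FPKM (26.0 to 39.0), although the protein holds more chains from Col1a1 than from Col1a2. Col3a1 stood at 249.7 FPKM. Type IV collagen chains Col4a1 (78.5 FPKM) and Col4a2 (71.8) overlapped, Col4a5 stood at 4.67, and Col4a3, Col4a4 and Col4a6 were under 0.2 FPKM. The cartilage collagen Col2a1 stood at 0.0464.

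Growth factors and their antagonists were led by Grem1, an inhibitor of bone morphogenetic proteins, at 296 FPKM (243 to 348), and by Csf1 at 132 FPKM. Pdgfa (48.8 FPKM), Tgfb1 (46.3), Gdf15 (45.9) and Vegfa (35.4) were the next of the ligands. Mstn, which encodes the muscle growth inhibitor myostatin, was listed at 0, while its relative Gdf11 stood at 16.2 FPKM. The insulin-like growth factors were low, with Igf2 at 1.87 FPKM and Igf1 at 0.755, while Igfbp2, a binding protein, stood at 865 FPKM, among the 100 most abundant genes. Among the listed ligands of the EGF receptor Hbegf (19.8 FPKM), Areg (22.4) and Ereg (11.2) were detected and Tgfa (0.843) was not. Fgf7 (12.4 FPKM) was above Fgf2 (3.79), and Wnt10a (12.2) and Wnt10b (9.49) were the highest of the listed Wnt genes.

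Paralog choice was described in families of related genes, with the leading gene's share of the family's summed FPKM. In 93 of 94 families the leader reached 5 FPKM. The leader held 80% or more in 36 of the 93 (38.7%), 90% or more in 23 (24.7%) and under 50% in 17, with a median share of 69.6%. In 75 families (80.6%) the limits of the leader and the next gene did not overlap. In 10 families the leader or the next gene had a mean above its own upper limit. One such pair was Cox7a2l (153 FPKM, 132 to 175) and Cox7a2, called apart although the Cox7a2 mean of 140 lay above its upper limit of 125. Families of nearly identical genes, such as actins, tubulins, calmodulins and H3.3 genes, share reads, and their splits are uncertain. The table gives 1 value per gene, so splice forms of a gene such as Pkm or Tpm1 cannot be told apart.

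Several families of metabolic enzymes were led strongly by 1 gene. The genes named below as muscle forms were low in some families and high in others. Aldoa stood at 649.8 FPKM with Aldoc at 1.25, Pgam1 at 426 with the muscle form Pgam2 at 1.45, Ldha at 748 with Ldhb at 8.32, and Pkm at 1265 with Pklr at 0.00332. Ckb, the brain-type creatine kinase, stood at 82.5 FPKM while the muscle form Ckm stood at 0.324 and the mitochondrial muscle form Ckmt2 was listed at 0. The muscle enolase Eno3 stood at 285 FPKM (228 to 343), next to Eno1 at 536 FPKM. Slc25a4, the heart and muscle form of the mitochondrial ADP/ATP translocase, led its family at 556 FPKM (471 to 641), apart from Slc25a5 at 404 (286 to 410.3). The muscle phosphofructokinase Pfkm stood at 21.4 FPKM, beside Pfkl at 55.1 and Pfkp at 29.4. Slc2a1 (64.6 FPKM) was the main glucose transporter, and the insulin-regulated muscle form Slc2a4 stood at 0.357. Hk1 (65.4 FPKM) stood above the muscle hexokinase Hk2 (14.4).

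Contractile and calcium-handling families were led by non-muscle or embryonic forms. Myh9 (325 FPKM) and Myh10 (33.5) were the heavy chains of non-muscle myosin, and of 10 muscle heavy chain genes 1 was detected, the embryonic Myh3 at 1.36 FPKM. Myl6 stood at 1647 FPKM with the fast muscle light chain Myl1 at 10.8. The calcium pump Atp2a2, of slow muscle and of many other cells, stood at 99.7 FPKM and the fast muscle pump Atp2a1 at 1.56. The IP3 receptor Itpr3 led the calcium release channels at 24.2 FPKM, with the ryanodine receptor Ryr1 at 0.455. Among muscle actins the smooth muscle form Acta2 stood at 333 FPKM, whereas the cardiac Actc1 (7.16) and skeletal Acta1 (6.59) forms were low. Next to Eef1a1, the muscle elongation factor Eef1a2 was listed at 0.

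Utrn, which encodes utrophin, stood at 18.3 FPKM (15.6 to 21.1), and its relative Dmd, which encodes dystrophin, at 0.00179. The sarcoglycans of the same complex, Sgcb (24.8 FPKM), Sgce (21.8), Sgca (9.14) and Sgcd (7.64), were detected, and so was Dag1 (55.7), which encodes dystroglycan. Of the vimentin family, Vim, Des (485) and Nes (250.1) were the main genes and Prph stood at 0.873.

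Cell cycle families were led by Ccnd1 (192 FPKM), Ccne1 (24.4), Ccna2 (104) and Ccnb1 (97.9), with Ccnd3 at 93.3 and Ccnb2 at 82.8. The germline forms Ccna1 (0.0242 FPKM) and Ccnb3 (listed at 0) were not detected. Cdk4 (233 FPKM) stood apart from Cdk2 (26.4). Among chromatin genes Dnmt1, the maintenance methyltransferase, stood at 50.5 FPKM against 2.13 for Dnmt3a, and Ezh2 at 44.3 against 7.32 for Ezh1. Kinases included Akt1 (168 FPKM) above Akt2 (41.3) and the AMPK subunit Prkaa1 (23.3) above the muscle-enriched Prkaa2 (0.274).

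In some families the leading and the next gene were not apart. In the 14-3-3 adaptor proteins Ywhae (633.9 FPKM) and Ywhaz (568) overlapped, and the leader held 32.6%. The muscle cadherin Cdh15 (73.5 FPKM) and N-cadherin Cdh2 (54.5) overlapped, while Cdh1 stood at 0.200. Hdac1 (95.2 FPKM) and Hdac2 (82.5), Vdac1 (263) and Vdac2 (190.1), and Mbnl1 (78.4) and Mbnl2 (55.8) also overlapped. Rbfox2 (50.8 FPKM) was the detected Rbfox splicing factor, with Rbfox1, a form of mature muscle and neurons, at 0.0220.

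**Figure D4:**
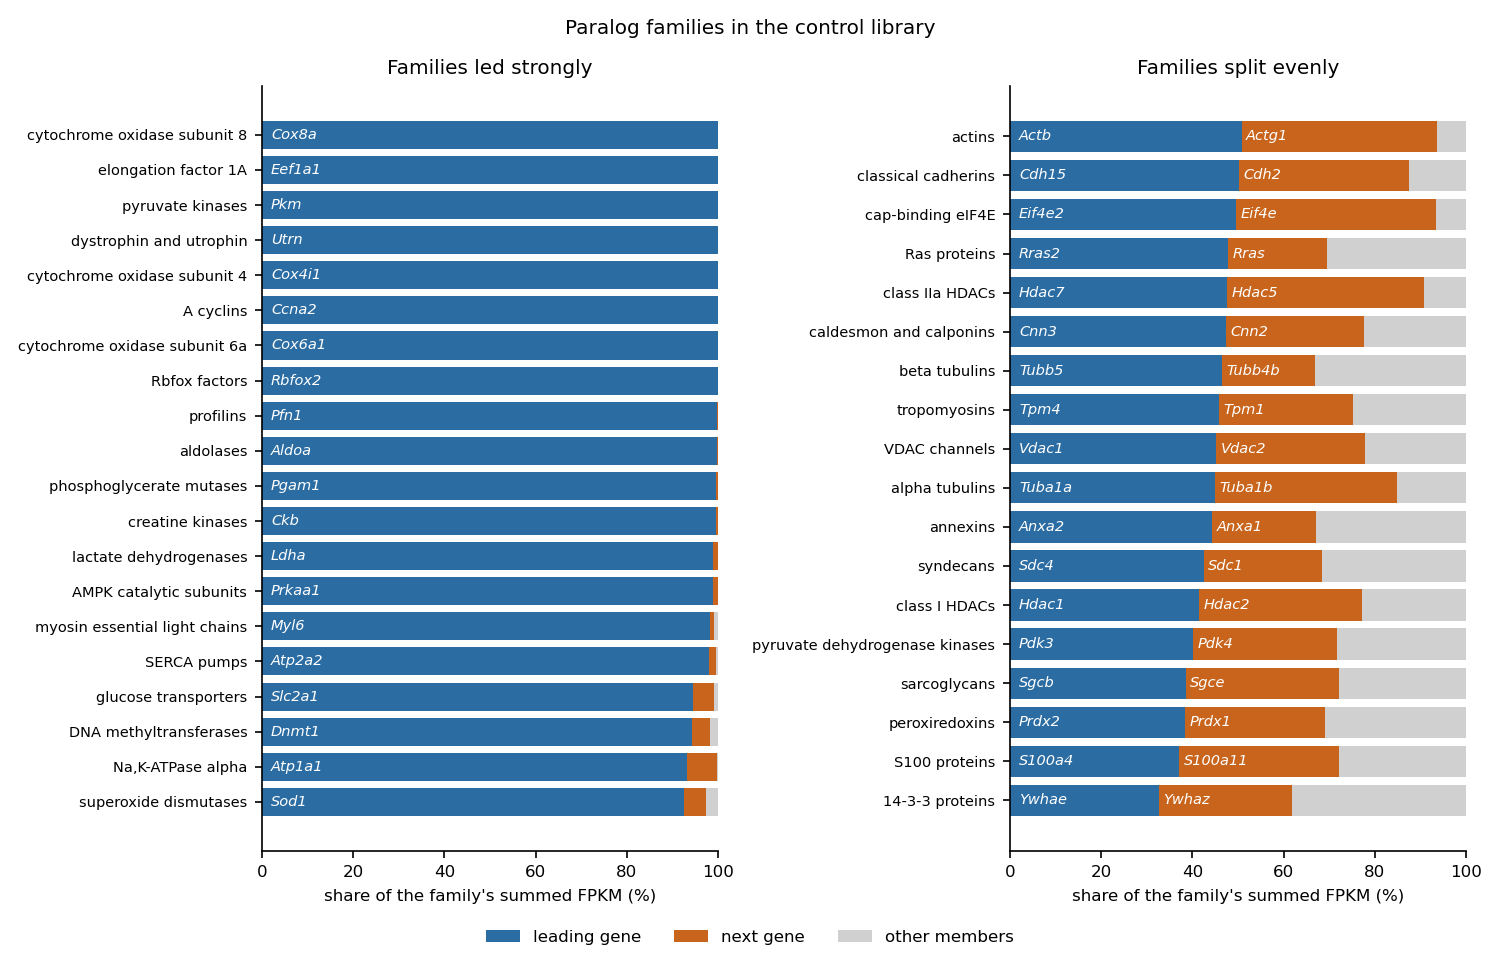
Share of each family's summed FPKM held by its leading gene (blue), the next gene (orange) and the other members (grey). The left panel shows 20 families with the highest leader's share. The right panel, titled as split evenly, shows 18 with low leader's shares. A low share is not always an even split, as in annexins, where Anxa2 (1399 FPKM) stood apart from Anxa1 (721). Eef1a1, Pkm, Utrn and Ccna2 fill their bars, whereas Ywhae holds 32.6% of its family.

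Genes of satellite cells and myoblasts were detected in 27 of 31 cases (87.1%) with a median of 18.0 FPKM, against 49.3% of all members. Besides the genes above, the surface genes Sdc4 (132 FPKM), Cdh15 (73.5), Cav1 (60.2), Vcam1 (33.8) and Megf10 (25.1) were present, with the Notch receptors Notch3 (15) and Notch1 (8.43). Calcr, which marks quiescent satellite cells, was listed at 0 and Spry1 stood at 1.36 FPKM.

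Differentiated muscle genes were detected in 30 of 54 cases (55.6%), against 49.3% of all members and 53.4% of protein-coding members. Most were low, with a median of 1.39 FPKM, though 10 reached 10 FPKM and 2 reached 100 FPKM. Eno3 was the highest of the list at 285 FPKM. Tnnt2, the embryonic and cardiac troponin T, stood at 88.4 FPKM, Cacng1 at 65.1, Jph2 at 28.1, Actn3 at 20.3 and the fusion gene Tmem8c (myomaker) at 8.5. Fast and slow troponin genes Tnnt3 (3.27), Tnni2 (2.60) and Tnni1 (5.49) were between 1 and 10 FPKM, and Ttn stood at 1.42. Genes of mature fibres that were under 1 FPKM included Neb at 0.273, Mb at 0.520, Ryr1 at 0.455, Casq1 at 0.105 and the adult myosins Myh1 (0.212), Myh4 (0.0200) and Myh2 (0.0128).

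Markers of other lineages were detected in 49 of 195 cases (25.1%), with a median of 0.0467 FPKM. Related mesenchymal lists were partly present, with 8 of 14 smooth muscle and pericyte genes, 12 of 19 fibroblast genes and 4 of 7 tendon genes. The 8 include Des and Notch3, which are also in the myoblast lists and are not among the 49. Acta2 (333 FPKM), Tagln (78.3) and Smtn (44.5) stood beside Myh11 at 0.00324. The fibroblast list was led by S100a4 (3640 FPKM), Col3a1 (249.7), Col1a2 (239), Ly6a (216) and Gsn (192), with Cd34 lower (30.6). Its undetected genes included Thy1 and Dpp4, both listed at 0, and Fap (0.0131), Lum (0.0129) and Dpt (0.0794). Tnc (129 FPKM) and Scx stood beside the late tendon gene Tnmd at 0.0709.

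Of 12 bone genes 5 were detected, among them Spp1 (2884 FPKM), the regulator Runx2 (18.5), the osteocyte matrix gene Dmp1 (5.29) and Phex (1.21). The osteoblast genes Ibsp (listed at 0), Alpl (0.00326) and Bglap (0.215) were not detected. Sox9 (40.7 FPKM) was the 1 detected of 10 cartilage genes, and Acan stood at 0.00191. Pparg (10.9 FPKM), Cebpa (6.08) and Lpl (4.87) were the 3 detected of 14 adipocyte genes, and Adipoq stood at 0.00833.

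The neuron list was detected in 6 of 19 cases. The detected genes were Nefl (110 FPKM, 89.0 to 137), Tubb3 (89.7), Stmn2 (57.2), Gap43 (37.1), Nefm (18.7) and Map2 (3.26), which encode proteins of the neuronal cytoskeleton and of growing axons. Among those not detected were the synaptic genes Snap25 (0.0124), Syp (0.161) and Syt1 (0.0467), the neurofilament gene Nefh (0.0122), the nuclear marker Rbfox3 (0.00487), and the transmitter genes Gad1 and Th (both listed at 0). Cardiac genes were detected in 4 of 12 cases, with Nppb at 10.5 FPKM and Gata4 at 10.0, while Myh6 stood at 0.0248 and Hand2 and Pln were listed at 0.

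Most listed markers of more distant cells were under 1 FPKM, but some were detected. Of 12 Schwann cell and glia genes 2 were detected, the higher being Pmp22 at 58.1 FPKM. In blood and immune cells 2 of 18 genes were detected, Cd14 (8.12 FPKM) and Cd68 (2.5), with Ptprc at 0.00871 and Cd3e and Emr1 listed at 0. In endothelium 1 of 14, Flt1, was detected, with Pecam1 at 0.0361 and Cdh5 at 0.120. Of 15 epithelial genes 2 were detected, Krt19 (33.3 FPKM) and Krt14 (6.11), with Epcam at 0.0311 and their keratin relatives Krt8 and Krt18 at 0.0974 and 0.0167. None of 14 liver and gut genes reached 1 FPKM, Alb being listed at 0, and 1 of 17 pluripotency and germ line genes did, Sycp3 at 1.65 FPKM, with Pou5f1 listed at 0.

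**Figure D5:**
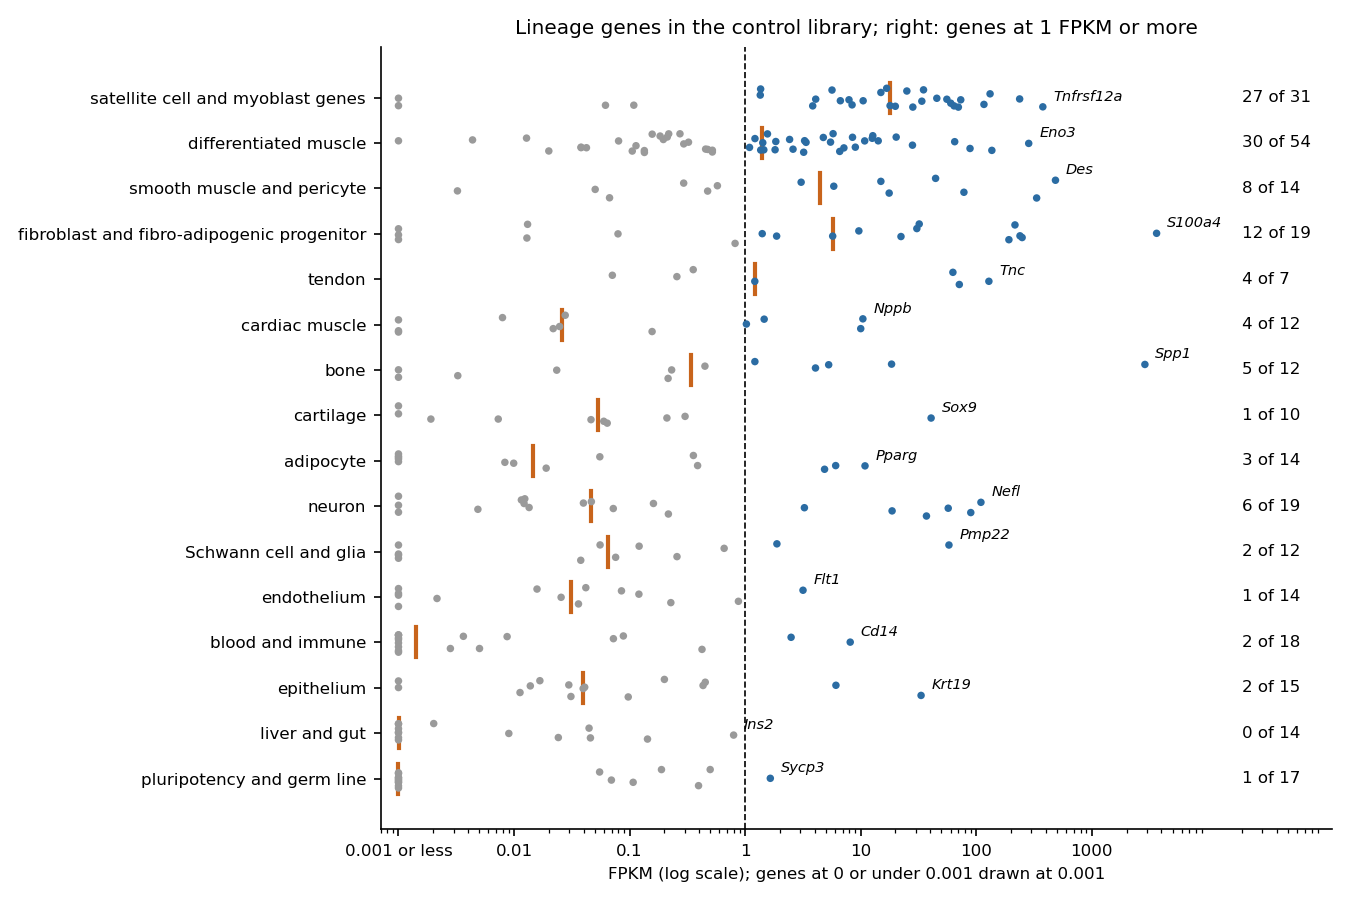
FPKM of the genes of 16 lineage lists in the control library (log scale, values at 0 or under 0.001 drawn at 0.001), blue at 1 FPKM or more and grey below, with the median of each list as an orange bar and the number detected at the right. The myoblast list is centred on 18.0 FPKM, and lists from cartilage to germ line have medians under 0.1 FPKM.

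Single genes outside these groups also describe the line. Of the genes that RefSeq calls long noncoding RNAs H19, an imprinted transcript of embryonic mesoderm, was the highest at 325 FPKM (280.1 to 371). Xist, the RNA of the inactive X chromosome, stood at 32.4 FPKM, and Ddx3y, Eif2s3y, Kdm5d, Uty, Sry and Usp9y, all on the Y chromosome, were listed at 0. Cdkn2a and Cdkn2b, the cell cycle inhibitor genes of the Ink4a-Arf locus, were listed at 0, while their neighbour Mtap stood at 93.7 FPKM and Trp53 at 114. The genes Rb1 (9.60 FPKM), Rbl1 (17.1), Nf1 (9.72) and Nf2 (30.3) were detected.

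Which genes were detected differed little in the other RNA libraries, which are other conditions and not replicates, while levels of single genes differed more. Foxk1, the gene targeted in the knockdown, stood at 9.09 FPKM (7.76 to 10.4) in the control, 16.1 after starvation and 5.15 (4.29 to 6.02) after knockdown. Of the 10690 detected genes 98.4% were also detected in the starved library and 98.3% in the Foxk1 knockdown library. Among genes listed at 0 in the control, 1 reached 1 FPKM after starvation and 0 did after knockdown, and 4687 were listed at 0 in all 3. Several genes described above, chosen here after their values were seen, stood at other levels there. Id3 was at 11.9 FPKM (8.35 to 13.8) after starvation and 411 (294 to 438) after knockdown, against 246 (181 to 259) in the control. Myod1 was at 10.7 FPKM (8.49 to 12.8) after starvation and 95.8 (76.9 to 114) after knockdown, against 70.1 (57.6 to 82.3). The limits of Id3 did not overlap between any of the 3 libraries, and those of Myod1 in the control overlapped those after knockdown but not those after starvation. Tnfrsf12a was at 80.6 FPKM after starvation and 171 after knockdown, against 377 in the control, and Acta2 at 110.0 and 1321, against 333, with limits that did not overlap between any of the 3. Among the 100 most abundant genes 95 and 92 were among the 100 most abundant there. The leading gene was the same after starvation in 85 of 93 families, after knockdown in 85 and in both in 80. The 13 families with another leader held none led by 80% or more in the control. In 7 of them the limits of the leader and the next gene overlapped in the control. The 13 included tropomyosins (Tpm4 in the control, Tpm1 in the knockdown library) and B cyclins (Ccnb1 in the control, Ccnb2 in both others). The B cyclins were among the 7, and after starvation they were nearly equal (Ccnb1 77.6 FPKM, Ccnb2 77.7).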

How the data were processed

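RNA of 3 C2C12 libraries was measured by polyA RNA-seq, and the control library (siNS, non-starved) was described here. Per the file headers, the deposited values are a mean FPKM per gene symbol and its 95% limits, and the authors' FPKM values were used without rescaling. Build mm9 and the tools Cufflinks 2.1.1, Cuffdiff, Bowtie2 2.1.0 and TopHat2 2.0.9 are named in the submitters' processing notes. Not given in the sources used here are the annotation, the options and what the word mean averages. Rows of combined symbols (364), repeated symbols (388 rows of 161 symbols) and short RNAs by name (664, of which 43 were also repeated) were left out. Chromatin region lists were not used.

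No test fits 1 library per group. Counts used a threshold of 1 FPKM. Lists held 1313 genes, of which 1292 were found as single rows, 5 of them under an older symbol. The members and lists were chosen with earlier results of these data known. Named are the line's markers, the 30 most abundant genes, the highest 4 members of each list, members under 1 FPKM that mark an absent lineage, and leading and next members of families. Other members of the fixed lists and the symbols matched to complexes were named after their values were seen.

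RefSeq promoters (build GRCm38.p6, 250 bases before to 50 after each start) were matched by symbol or synonym to protein-coding members, averaging a gene's starts. Of 19584 such members 15703 (80.2%) had a promoter. The build differs from mm9, so coordinates refer to RefSeq only. The count of detected genes, the shares of FPKM, the choice of a family leader with a built-in lead and the CpG ratio were tested on simulated data. The overlap of limits and the search for TATAAA were not. Alternatives covered thresholds, pseudocounts, row filters, interval limits and the other libraries. Scripts ran in Python 3.11.15 with pandas 2.3.3, numpy 2.4.6 and matplotlib 3.10.9. Some listed genes and families are not reported here and are left out of the text and the figures, while counts and shares over whole lists include them.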

Additional observations from a re-analysis of the deposited data

How the results depend on the processing

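Of 32 alternative values 30 lay within 1.5 times of the reported one. At 5 FPKM in place of 1 FPKM, 75 receptor genes were detected in place of 117. A leader's share of 90% in place of 80% left 23 families in place of 36. The comparison of promoters between detected genes and genes under 1 or under 5 FPKM, which had been planned, was not run, because under 80% of those genes (79.5% and 79.3%) had a promoter in the table, and genes listed at 0 were used instead. Without olfactory and vomeronasal receptor genes the median CpG ratio of genes listed at 0 was 0.232 in place of 0.185. Reading the midpoint of the limits in place of the mean, reading the other libraries, and leaving out olfactory receptors were chosen after seeing the data. By the midpoint, 97 of the 100 most abundant genes and 92 of 93 family leaders were kept. No paired analysis was possible because each group held 1 sample, and no library could be left out for the same reason.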

Other observations

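Olfactory and vomeronasal receptor genes, which are used in sensory neurons, made up 1412 of the members. Of these 1366 were listed at 0, 3 reached 1 FPKM and the highest stood at 5.41 FPKM.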
